A study of Mus musculus with 12 samples.

Results

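Heat shock chaperones of the cytosol and the mitochondria were followed across 4 kinds of mouse bone marrow culture. The members were chosen by name, as all probe sets annotated to 39 listed symbols, and 36 of these had at least 1 probe set of their own, which gave 96 of the 45037 probe sets that are no array controls. Hsf1 and Hsp90ab1 were not analysed here, and Ptges3 stood only on probe sets that also carry a pseudogene, so it was not named either. Each probe set was treated singly, because the rule for the members shows each singly, and several probe sets of 1 gene gave different values.

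All cultures came from bone marrow of (C57Bl/6Ly-Pep3b x C3H/HeJ) F1 mice that had received 5-fluorouracil, and all were transformed with NUP98-HOXD13, a leukaemia fusion of a nucleoporin with a homeobox protein, carried by the ND13-GFP or the ND13pac virus. After 4 weeks of liquid culture with human interleukin-6 at 10 ng/ml, murine stem cell factor at 100 ng/ml and murine interleukin-3 at 6 ng/ml, they took up another retrovirus by 2 days of growth on E86 producer cells irradiated with 4000 cGy. It encoded M33-MEIS1, MEIS1-deltaHD (MEIS1 lacking the homeodomain, its DNA-binding part), MEIS1-WT (full-length MEIS1) or, in the MIY control, yellow fluorescent protein alone. M33 is an older name of the Polycomb protein Cbx2, and the labels give no more about that construct. There were 3 arrays of each, from independent experiments according to the series record, and p-values measure the spread between these arrays. RNA came from sorted cells, and neither the gate nor the age of the mice is given in the sources used here. Every group thus carries the fusion gene, and the comparisons are between cultured cells that were already transformed when they received a second gene from a retroviral vector.

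Chaperones keep proteins foldable. Hsp70 proteins bind unfolded stretches and are started by Hsp40 (J domain) partners and reset by nucleotide exchange factors, while Hsp90 acts later on kinases and steroid receptors with its own co-chaperones. The chaperonins enclose a chain in a chamber: TRiC in the cytosol, which folds actin and tubulin, and Hspd1 with its lid Hspe1 in mitochondria. Many of these genes are switched on by heat shock factor 1, which binds heat shock elements, runs of the triplet GAA in alternating orientation. Growing and dividing blood cells need much of this machinery, and several leukaemia proteins are Hsp90 clients.

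Values are array signals on a linear scale, with a trimmed mean of 100 on every array, and tests used log2(signal + 16), which makes differences of dim probe sets smaller than the ratios of their signals. Of the 96 probe sets, 91 passed a filter on low values (above the 40th percentile of the array on at least 3 of 12 arrays). The other 5, 1 each of Hspb1, Fkbp5, Hsf2, Cct3 and Cct8, did not reach that level on 3 arrays. One limma model covered all 31726 probe sets that passed the filter, and a probe set passed the test at an adjusted p (Benjamini-Hochberg) below 0.05. The 3 comparisons with MIY share the same control arrays, so their values stand side by side and do not repeat each other independently. A rank-based exact test of 3 against 3 arrays cannot go below a two-sided p of 0.1, so the p-values rest on the model.

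Several measures of the arrays differed between the groups and moved with the results below. The median signal of all probe sets averaged 14.9 ± 1.03 with M33-MEIS1, 13.4 ± 0.409 with MEIS1-deltaHD, 14.8 ± 0.519 with MEIS1-WT and 19.2 ± 2.19 with MIY (SD, n = 3 each), although all arrays had the same trimmed mean. The 3′ to 5′ ratio of actin, a sign of RNA quality, averaged 1.38 ± 0.0676, 1.35 ± 0.0523 and 1.46 ± 0.0200 with the constructs in that order and 1.50 ± 0.00980 with MIY. The same ratio of Gapdh went the other way, at 0.850 ± 0.0281, 0.819 ± 0.00847 and 0.832 ± 0.00835 with the constructs and 0.783 ± 0.0153 with MIY. Of 12 monocyte and macrophage marker genes, all passed the filter, and their summed signal lay between 5189 and 5908 with M33-MEIS1, 3425 and 3733 with MEIS1-deltaHD, 1401 and 1672 with MEIS1-WT, and 14857 and 16836 with MIY. The 19 G1/S genes measured, a mark of dividing cells, summed to between 26279.5 and 28049, 26353 and 27143, and 26648 and 27979 with the same 3 constructs, against 13967 to 16976 with MIY. Summed neutrophil markers (10 of 10 passed the filter) lay between 6662 and 7162 with MEIS1-WT and between 11622 and 14811 in the other 3 groups. Mpo made the largest part of that sum, and single markers moved in opposite directions. Elane averaged 1893 with M33-MEIS1, 2174 with MEIS1-deltaHD and 757 with MEIS1-WT, against 739 with MIY. Mmp8 averaged 962, 456 and 180 with the constructs in that order, against 3746 with MIY. Mast cell and basophil markers (8 of 9 on the array) summed to between 4028 and 4357 with M33-MEIS1 and to between 1869.6 and 3636 elsewhere. Fibroblast markers (5 of 9 past the filter, with Col3a1, Dcn, Lox and Postn below it) summed to between 261 and 298 with M33-MEIS1, 269.9 and 333 with MEIS1-deltaHD, and 345 and 364 with MEIS1-WT, against 457 to 555 with MIY. Most of that gap was Pdgfrb, which averaged 139 ± 2.58, 162 ± 23.0 and 189 ± 19.9 with the constructs and 315 ± 44.2 with MIY. Erythroid markers (3 of 4 past the filter, sum 58.4 to 139) and B and T cell markers (3 of 6, sum 24.9 to 63.8) were low in all groups. The part of cell make-up, division and RNA quality in the chaperone results was not tested, and in such bulk RNA fewer cells of a type cannot be told apart from less RNA per cell.

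Against MIY, more chaperone probe sets passed as higher than as lower with every construct. With M33-MEIS1, 39 of the 91 probe sets passed as higher and 6 as lower, where 11.8% of all probe sets tested passed as higher and 17.1% as lower (28.9% in all). With MEIS1-deltaHD, 42 passed as higher and 8 as lower (13.8% and 20.8% of all, 34.5% together). With MEIS1-WT, 44 passed as higher and 3 as lower (13.1% and 17.8% of all, 31% together). The median log2 difference of the 91 was 0.22, 0.20 and 0.25 in that order, beside medians of -0.12, -0.14 and -0.10 over all probe sets tested. Groups did not overlap for 42 higher and 9 lower probe sets with M33-MEIS1 (14.6% and 24.3% of all), 44 and 9 with MEIS1-deltaHD (17.1% and 29.8%), and 47 and 5 with MEIS1-WT (16.7% and 25.2%). Without the filter, 38, 38 and 42 of all 96 probe sets passed as higher and 5, 6 and 3 as lower. Of all 45037 probe sets, 7.8%, 9.09% and 8.62% then passed as higher and 11.1%, 14.1% and 11.9% as lower. By gene, 26 of 36 had a higher probe set with M33-MEIS1, 26 with MEIS1-deltaHD and 25 with MEIS1-WT, while 4, 6 and 2 had a lower one, and 1, 3 and 1 had both. Of all 14005 genes tested, 2455, 2804 and 2625 had a higher probe set in that order, and 3273, 3948 and 3343 a lower one. The chaperone probe sets had a median mean signal of 473 beside 40.1 over all tested, and what brightness adds to the number that pass was not tested. The plot of differences by role shows where the higher and the lower ones sat.

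**Figure D1:**
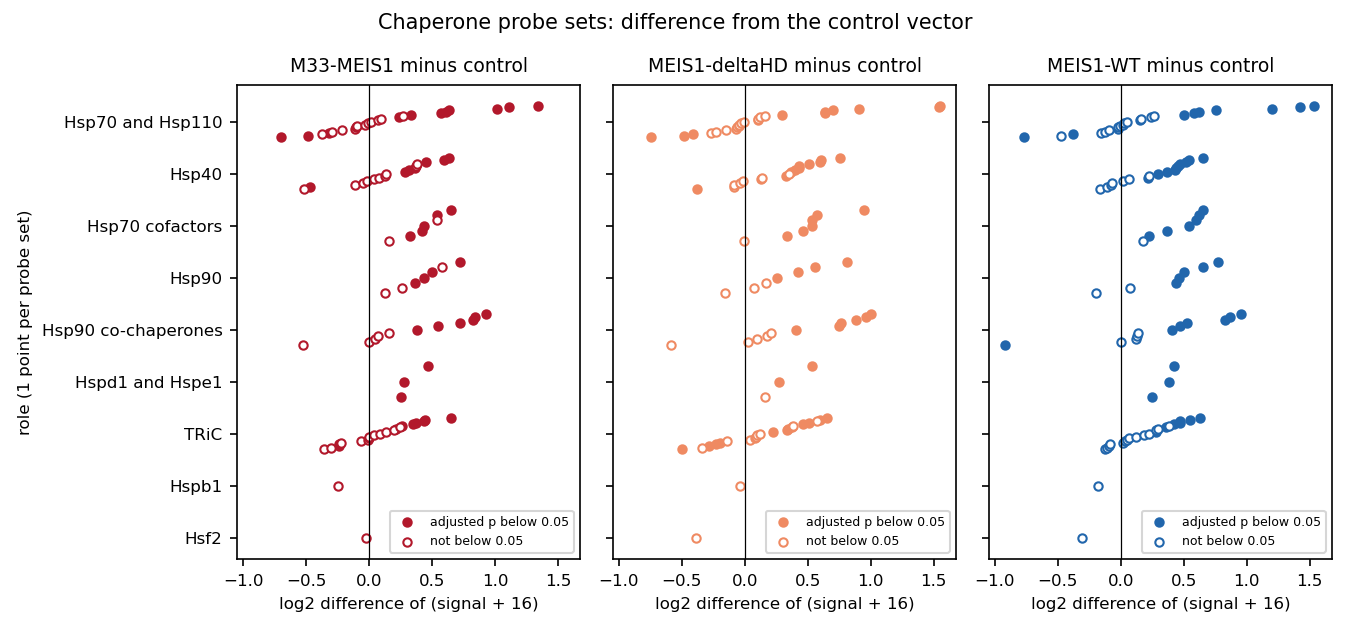
Log2 difference of signal from the MIY control (x axis, log2 of signal + 16) for the 91 chaperone probe sets that passed the filter, 1 point each, in rows by role and panels by construct. Filled points passed at an adjusted p below 0.05 and open points did not. Hsp70 cofactors and Hsp90 lie mostly right of 0, whereas the Hsp70 and Hsp110 row spreads from -0.77 (Hspa9) to 1.55 (Hsph1).

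Because many of these genes share heat shock factor binding in their promoters, the letters there were set beside the values. RefSeq promoter windows of the build GRCm38.p6, from 250 bases before to 50 after a gene's start, were found for 31 of the 36 genes, and Hspa8, Hspa9, Hsp90aa1, St13 and Cct4 had none. A heat shock element of 2 units was searched as GAANNTTC or TTCNNGAA, and one of 3 units as GAANNTTCNNGAA or TTCNNGAANNTTC, which covers both strands. A match of 3 units always holds overlapping matches of 2. The 2-unit element stood in 13 of the 31 genes (41.9%), beside 17% of the 27025 genes with a window. The 3-unit element stood in 5 (16.1%), namely Hsph1, Hspd1, Hspe1, Dnajb6 and Chordc1, beside 0.662% of all genes. The MEIS hexamer TGACAG, searched on both strands, stood in 3 of 31 genes (9.68%), beside 21.6% of all. These are matches of letters, not bound sites.

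The windows of 4 genes are shown because they span the range of elements and of response, with the bases of every heat shock element match in capitals, from 250 bases before to 30 bases after the start, 5′ to 3′ along the gene. Hsph1 has 1 match before its start and a 3-unit run after it, and Hspe1 has a run of 4 alternating units that also lies in a window of its divergent neighbour Hspd1. Chordc1 has a run of 5 units, and Stip1 has no match.
Hsph1, chr5:149636286-149636565, minus strand: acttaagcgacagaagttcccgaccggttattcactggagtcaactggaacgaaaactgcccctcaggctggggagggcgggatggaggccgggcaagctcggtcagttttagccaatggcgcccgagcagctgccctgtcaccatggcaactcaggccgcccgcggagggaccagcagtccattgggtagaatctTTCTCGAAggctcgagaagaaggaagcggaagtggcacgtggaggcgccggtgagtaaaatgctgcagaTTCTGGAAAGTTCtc
Hspe1, chr1:55087898-55088177, plus strand: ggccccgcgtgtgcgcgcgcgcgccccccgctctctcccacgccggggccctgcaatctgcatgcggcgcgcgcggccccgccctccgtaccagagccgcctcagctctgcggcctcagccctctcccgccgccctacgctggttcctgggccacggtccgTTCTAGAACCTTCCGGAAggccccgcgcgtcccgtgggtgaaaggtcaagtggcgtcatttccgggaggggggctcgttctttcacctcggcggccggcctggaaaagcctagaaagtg
Chordc1, chr9:18292017-18292296, plus strand: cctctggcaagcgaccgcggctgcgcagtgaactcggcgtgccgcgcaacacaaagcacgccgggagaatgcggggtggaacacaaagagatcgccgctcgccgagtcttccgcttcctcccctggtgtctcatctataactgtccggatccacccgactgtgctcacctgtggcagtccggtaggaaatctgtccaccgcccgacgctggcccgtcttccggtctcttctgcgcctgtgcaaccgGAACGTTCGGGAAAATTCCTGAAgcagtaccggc
Stip1, chr19:7039997-7040276, minus strand: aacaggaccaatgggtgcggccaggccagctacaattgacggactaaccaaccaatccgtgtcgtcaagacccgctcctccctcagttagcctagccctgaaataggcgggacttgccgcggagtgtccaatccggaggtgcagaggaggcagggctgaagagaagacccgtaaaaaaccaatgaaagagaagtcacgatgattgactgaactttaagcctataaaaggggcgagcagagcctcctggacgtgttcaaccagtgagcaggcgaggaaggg

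Whether the elements go with the differences from MIY was not tested, and the counts are given as a description. Chordc1, with the most 2-unit matches of any member window (5 in the 300 bases), passed with no construct under the authors' scaling (it passed as higher with all 3 after median scaling), and Stip1, with none, was among the genes that stood highest over MIY. Among genes with a higher probe set, the 2-unit element stood in 9 of 23 with M33-MEIS1, 8 of 22 with MEIS1-deltaHD and 9 of 22 with MEIS1-WT. Among the remaining genes with a window it stood in 4 of 8, 5 of 9 and 4 of 9 in that order. The 3-unit element stood in 4 of 23, 3 of 22 and 4 of 22 genes with a higher probe set, and in 1 of 8, 2 of 9 and 1 of 9 of the others.

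The Hsp70 and Hsp110 chaperones held both the strongest rise and, under the authors' scaling, the clearest fall. Of their 23 probe sets, 8 passed as higher and 3 as lower with M33-MEIS1, 7 and 3 with MEIS1-deltaHD, and 7 and 2 with MEIS1-WT. As higher these were 34.8%, 30.4% and 30.4%, beside 11.8%, 13.8% and 13.1% of all tested. As lower they were 13%, 13% and 8.7%, beside 17.1%, 20.8% and 17.8% of all tested, so lower calls were not in excess. Hsph1 encodes Hsp110, which exchanges nucleotide on Hsp70 and helps to pull apart aggregates. Its probe set 1425993_a_at read 652, 621 and 601 with M33-MEIS1, 761, 745 and 662 with MEIS1-deltaHD and 701, 748 and 696 with MEIS1-WT, against 242, 235 and 233 with MIY. Every construct array lay above every control array, with no overlap. The log2 difference from MIY was 1.34 with M33-MEIS1 (adjusted p = 1.32e-11), 1.54 with MEIS1-deltaHD (adjusted p = 6.48e-13) and 1.53 with MEIS1-WT (adjusted p = 4.55e-13), each with an SE of 0.078. A second probe set, 1423566_a_at, read 339.7, 371 and 337 with M33-MEIS1, 454, 501 and 481 with MEIS1-deltaHD and 432, 463 and 410.2 with MEIS1-WT, against 155, 161 and 142 with MIY. Here the M33-MEIS1 arrays were the lowest of the construct arrays, with no overlap. Differences from MIY were 1.11 with M33-MEIS1 (adjusted p = 1.07e-09), 1.55 with MEIS1-deltaHD (adjusted p = 2.77e-12) and 1.42 with MEIS1-WT (adjusted p = 9.97e-12).

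Hspa14, an Hsp70 protein found with ribosomes, rose on its bright and its dim probe set. Probe set 1448586_at read 735, 724 and 743 with M33-MEIS1, 767, 803 and 736 with MEIS1-deltaHD and 736, 852 and 809.5 with MEIS1-WT, against 483, 416 and 506 with MIY, without overlap between constructs and control. Its log2 differences were 0.64 with M33-MEIS1 (adjusted p = 2.79e-06), 0.70 with MEIS1-deltaHD (adjusted p = 5.05e-07) and 0.75 with MEIS1-WT (adjusted p = 1.65e-07). The dim probe set 1439826_at read 47.3, 56.3 and 53.7 with M33-MEIS1, 43.3, 47.8 and 50.7 with MEIS1-deltaHD and 71.1, 60.6 and 53.2 with MEIS1-WT, against 25.2, 6.22 and 25.8 with MIY, and here control replicate 2 was far below the other control arrays. It differed by 1.02 with M33-MEIS1, 0.91 with MEIS1-deltaHD and 1.2 with MEIS1-WT (adjusted p = 0.000278, 0.000692 and 3.35e-05). The remaining Hspa14 probe set, 1417095_a_at, passed as higher with MEIS1-WT alone (0.58, adjusted p = 0.00424).

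Hspa8 encodes Hsc70, the cytosolic Hsp70 of unstressed cells. Probe set 1455789_x_at read 7015, 6188 and 7425 with M33-MEIS1, 5939, 6509.9 and 6561 with MEIS1-deltaHD and 6564, 6814 and 7375 with MEIS1-WT, against 7551, 6519 and 7012 with MIY, and the groups overlapped. It did not pass against MIY, at -0.033 with M33-MEIS1 (adjusted p = 0.801), -0.15 with MEIS1-deltaHD (adjusted p = 0.154) and -0.022 with MEIS1-WT (adjusted p = 0.871). Those values turned to 0.16, 0.17 and 0.24 after quantile normalization and to 0.33, 0.36 and 0.35 after median scaling, all past the test, so no direction is given for it. Of the other Hspa8 probe sets, the dim 1431182_at passed with all constructs (0.58 with M33-MEIS1, 0.64 with MEIS1-deltaHD and 0.62 with MEIS1-WT) and 1420623_x_at with M33-MEIS1 alone (0.24, adjusted p = 0.0132). The suffix _x_at marks probes that also match other sequences, and Hspa8 has many processed pseudogenes, so its values may mix sources.

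Hspa9 encodes mortalin, the mitochondrial Hsp70 that draws proteins through the inner membrane, and under the authors' scaling it fell with all constructs on both bright probe sets. Probe set 1418503_at read 1149, 1329 and 1126 with M33-MEIS1, 1163, 1082 and 1239 with MEIS1-deltaHD and 1107, 1331 and 1002 with MEIS1-WT, against 1829.8, 2308 and 1775 with MIY. All construct arrays lay below all control arrays. The difference was -0.70 with M33-MEIS1 (adjusted p = 1.47e-05), -0.75 with MEIS1-deltaHD (adjusted p = 4.64e-06) and -0.77 with MEIS1-WT (adjusted p = 2.99e-06). Probe set 1418504_at read 2025, 1928 and 1819 with M33-MEIS1, 1859, 1969 and 1929.9 with MEIS1-deltaHD and 2043, 2094 and 2074 with MEIS1-WT, against 2768, 2750.3 and 2572 with MIY, again without overlap. It differed by -0.48 with M33-MEIS1 (adjusted p = 6.86e-06), -0.49 with MEIS1-deltaHD (adjusted p = 4.63e-06) and -0.38 with MEIS1-WT (adjusted p = 0.000116). After scaling of all arrays to the same median, 1418503_at gave -0.34 with M33-MEIS1 (adjusted p = 0.0293), -0.24 with MEIS1-deltaHD (adjusted p = 0.115) and -0.41 with MEIS1-WT (adjusted p = 0.00783), while 1418504_at passed with none of them and turned to 0.017 with MEIS1-deltaHD. The other 3 Hspa9 probe sets, all dimmer, did not pass.

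Hspa4, another Hsp110-type exchange factor, gave opposite answers on its probe sets. The bright 1416146_at read 1696, 1578 and 1735 with M33-MEIS1, 1639, 1785 and 1661 with MEIS1-deltaHD and 1443, 1506 and 1692 with MEIS1-WT, against 1003, 1284 and 989 with MIY. It passed as higher with every construct, by 0.61 with M33-MEIS1, 0.64 with MEIS1-deltaHD and 0.50 with MEIS1-WT (adjusted p = 1.28e-05, 5.94e-06 and 0.000115). The dimmer 1435194_at read 302, 241 and 209 with M33-MEIS1, 227, 223 and 244 with MEIS1-deltaHD and 352, 323 and 302 with MEIS1-WT, against 378, 284 and 284 with MIY. It passed as lower with M33-MEIS1 (-0.32, adjusted p = 0.0494) and MEIS1-deltaHD (-0.41, adjusted p = 0.00882), but not with MEIS1-WT (0.052, adjusted p = 0.785). The M33-MEIS1 arrays overlapped MIY, and that call was lost without control replicate 1, M33-MEIS1 replicate 2 or 3, or any single array of the other constructs (adjusted p from 0.0526 to 0.295). The MEIS1-deltaHD call was lost without control replicate 1 (-0.28, adjusted p = 0.0843), and median scaling turned both positive (0.025 and 0.065). The other 2 Hspa4 probe sets did not pass. Hspa4l, a relative, passed on 1 of 5 probe sets, 1418253_a_at, with M33-MEIS1 (0.33) and MEIS1-deltaHD (0.30), as higher.

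**Figure D2:**
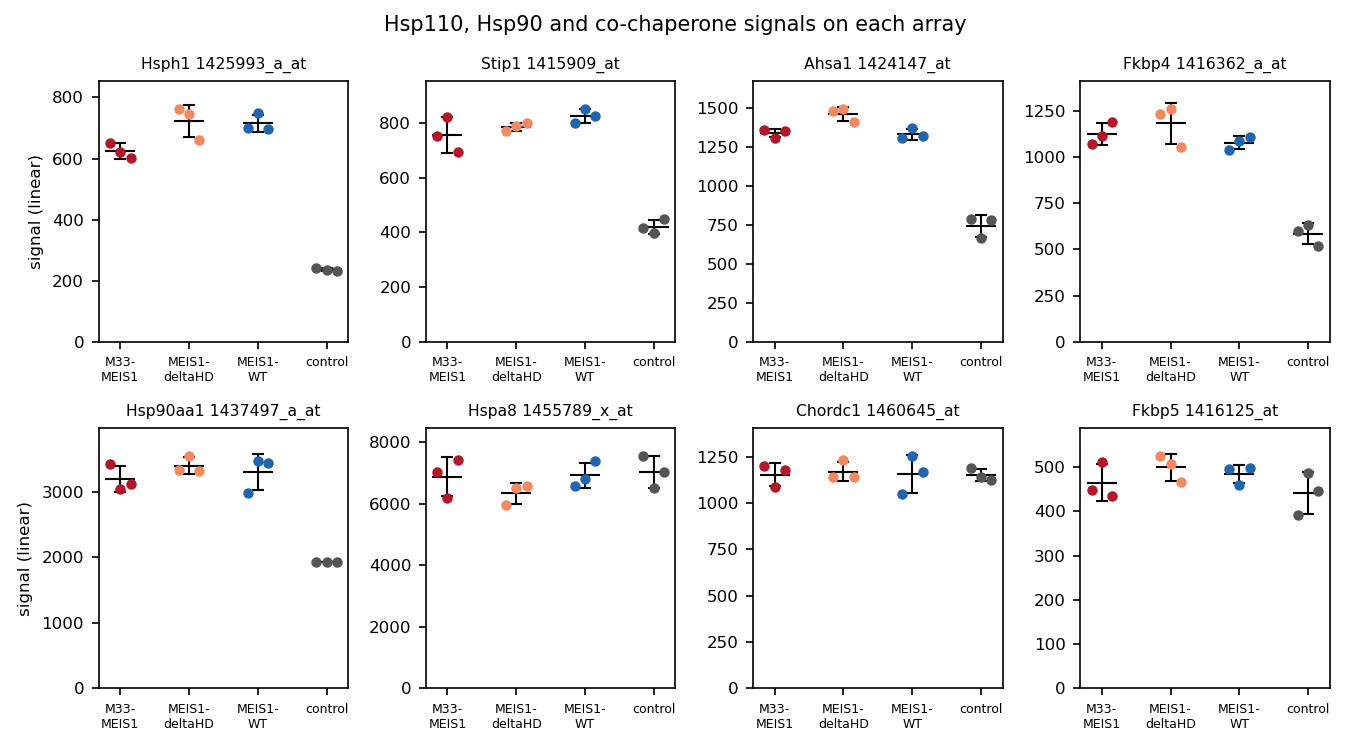
Array signal (y axis, linear scale from 0, trimmed mean of 100 per array) of 8 probe sets of cytosolic chaperones, with 1 point per array and a bar at the mean ± SD of 3 arrays for each group on the x axis. Hsph1, Stip1, Ahsa1, Fkbp4 and Hsp90aa1 separate the constructs from MIY, while Hspa8, Chordc1 and Fkbp5 overlap.

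Hsp40 partners, which deliver clients to Hsp70, rose on 6 to 10 of their probe sets. Of 17 probe sets, 6 passed as higher with M33-MEIS1, 9 with MEIS1-deltaHD and 10 with MEIS1-WT, while 1, 1 and 0 passed as lower (limma, with Dnajb4 as the lower one). The higher shares were 35.3%, 52.9% and 58.8%, beside 11.8%, 13.8% and 13.1% of all tested. The lower shares were 5.88%, 5.88% and 0%, beside 17.1%, 20.8% and 17.8% of all tested. Dnajb1, the stress-induced partner of cytosolic Hsp70, read 610.0, 521 and 579 with M33-MEIS1, 638, 624 and 642 with MEIS1-deltaHD and 550.3, 579 and 557 with MEIS1-WT, against 448, 388 and 399 with MIY on probe set 1416755_at. No construct array fell within the control range, and MEIS1-deltaHD was the highest group. It differed from MIY by 0.45 with M33-MEIS1 (adjusted p = 0.000148), 0.61 with MEIS1-deltaHD (adjusted p = 2.84e-06) and 0.44 with MEIS1-WT (adjusted p = 0.000181), and its second probe set, 1416756_at, by 0.32 with M33-MEIS1, 0.51 with MEIS1-deltaHD and 0.37 with MEIS1-WT, all past the test. Dnaja1, a farnesylated partner of Hsc70, passed on 2 of 3 probe sets with M33-MEIS1 and on all 3 with the other constructs, with 1460179_at at 0.64 with M33-MEIS1, 0.75 with MEIS1-deltaHD and 0.65 with MEIS1-WT. Dnaja2, its close relative, passed on 1, 2 and 3 of its 4 probe sets in the same order, and 1417183_at differed by 0.28 with M33-MEIS1, 0.37 with MEIS1-deltaHD and 0.47 with MEIS1-WT. Dnajb6, a suppressor of protein aggregation, rose on 1448234_at (0.59 with M33-MEIS1, 0.59 with MEIS1-deltaHD and 0.43 with MEIS1-WT), while 2 of its 4 probe sets passed with no construct.

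Dnajb4 and Dnajc7 stood apart from the other Hsp40 genes under the authors' scaling. Dnajb4, a relative of Dnajb1, read 193, 208 and 211 with M33-MEIS1, 238, 192 and 225 with MEIS1-deltaHD and 247, 279 and 239.9 with MEIS1-WT, against 302, 298 and 265 with MIY on 1451177_at. It fell with M33-MEIS1 (-0.47, adjusted p = 0.000782) and MEIS1-deltaHD (-0.38, adjusted p = 0.00385) without overlap with MIY, and MEIS1-WT overlapped MIY (-0.17, adjusted p = 0.218). Its other probe sets did not pass. Neither call held after median scaling (-0.13, adjusted p = 0.533, and 0.096, adjusted p = 0.624). Dnajc7, which binds both Hsp70 and Hsp90, did not pass, at -0.11 with M33-MEIS1, -0.089 with MEIS1-deltaHD and -0.076 with MEIS1-WT. Median scaling turned these to 0.24, 0.40 and 0.28 (adjusted p = 0.11, 0.0038 and 0.05), so no direction is given for Dnajc7.

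The cofactors that act on the Hsp70 nucleotide cycle rose almost throughout, with 5 of 7 probe sets higher with M33-MEIS1 and 6 of 7 with each of the other constructs. Of all probe sets tested, 11.8% passed as higher with M33-MEIS1, 13.8% with MEIS1-deltaHD and 13.1% with MEIS1-WT. Bag3 links Hsp70 to autophagy and is a classical heat shock target. Its only probe set, 1422452_at, read 103, 114 and 99.2 with M33-MEIS1, 101, 106 and 106 with MEIS1-deltaHD and 132, 116 and 98.5 with MEIS1-WT, against 57.6, 65.5 and 80.1 with MIY, with no overlap. It differed by 0.54 with M33-MEIS1 (adjusted p = 0.00198), 0.53 with MEIS1-deltaHD (adjusted p = 0.00188) and 0.65 with MEIS1-WT (adjusted p = 0.000278). Bag1 passed with each construct (0.33 with M33-MEIS1, 0.33 with MEIS1-deltaHD and 0.37 with MEIS1-WT), as did Bag2 (0.42 with M33-MEIS1, 0.46 with MEIS1-deltaHD and 0.60 with MEIS1-WT) and Hspbp1 (0.65 with M33-MEIS1, 0.58 with MEIS1-deltaHD and 0.62 with MEIS1-WT), all of them exchange factors or inhibitors of Hsp70. St13, or Hip, which holds Hsp70 in its client-bound state, read 901, 853 and 813 with M33-MEIS1, 973, 900.1 and 868 with MEIS1-deltaHD and 920.0, 947 and 893 with MEIS1-WT, against 623, 612 and 644 with MIY on 1460193_at. Its differences were 0.44 with M33-MEIS1 (adjusted p = 6.93e-05), 0.53 with MEIS1-deltaHD (adjusted p = 4.52e-06) and 0.54 with MEIS1-WT (adjusted p = 3.5e-06). The brightest St13 probe set, 1436113_a_at, averaged 1153 with M33-MEIS1, 1025 with MEIS1-deltaHD and 1205 with MEIS1-WT, against 1031 with MIY. That probe set passed as higher with MEIS1-WT alone. A dim St13 probe set, 1416851_at, read 21.6, 17.8 and 36.0 with M33-MEIS1, 57.6, 24.8 and 35.2 with MEIS1-deltaHD and 12.3, 8.99 and 27.7 with MEIS1-WT, against 19.4, 3.56 and 15.1 with MIY, which overlapped between MEIS1-WT, M33-MEIS1 and MIY. It passed with MEIS1-deltaHD alone (0.94, adjusted p = 0.00597), and this call ended when either control replicate 2 or MEIS1-deltaHD replicate 1 was removed (0.69 and 0.72, adjusted p = 0.0501 and 0.0586).

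Of the 7 probe sets of Hsp90 itself, 4 passed as higher with M33-MEIS1, 4 with MEIS1-deltaHD and 5 with MEIS1-WT. These were 57.1%, 57.1% and 71.4%, beside 11.8%, 13.8% and 13.1% of all tested. Hsp90aa1, the stress-inducible cytosolic Hsp90, rose on its 3 bright probe sets. Probe set 1437497_a_at read 3422, 3033 and 3120.2 with M33-MEIS1, 3324, 3546 and 3322 with MEIS1-deltaHD and 2982, 3467 and 3439.7 with MEIS1-WT, against 1922, 1926 and 1924 with MIY. The 3 control arrays lay close together, and the lowest construct array, at 2982, stood well clear of them. It differed from MIY by 0.72 with M33-MEIS1 (adjusted p = 6.96e-08), 0.81 with MEIS1-deltaHD (adjusted p = 7.72e-09) and 0.77 with MEIS1-WT (adjusted p = 1.66e-08). Probe set 1426645_at read 4111, 3657 and 4402 with M33-MEIS1, 3558, 4010.5 and 3949.8 with MEIS1-deltaHD and 4138, 3824 and 4174 with MEIS1-WT, against 2954, 2917 and 2696 with MIY, again without overlap. Its differences were 0.50 with M33-MEIS1, 0.42 with MEIS1-deltaHD and 0.50 with MEIS1-WT (adjusted p = 2.43e-05, 0.000129 and 1.91e-05). Another probe set, 1438902_a_at, read 4321, 4243 and 4391 with M33-MEIS1, 3463, 4369 and 4187 with MEIS1-deltaHD and 4806, 4869 and 4212 with MEIS1-WT, against 3086, 3864 and 3144 with MIY. Here MEIS1-deltaHD overlapped MIY, and its difference of 0.25 (adjusted p = 0.036) missed the threshold once control replicate 1 or 3 was left out (0.19 and 0.21, adjusted p = 0.161 and 0.12). It did so too when MEIS1-deltaHD replicate 2 or 3 was left out (0.19 and 0.22, adjusted p = 0.184 and 0.124). With M33-MEIS1 it was 0.37 (adjusted p = 0.00378) and with MEIS1-WT 0.46 (adjusted p = 0.000353). Of the dimmer 2, 1441827_x_at passed with MEIS1-WT alone (0.65, adjusted p = 0.0419).

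The co-chaperones that Hsp90 works with included genes that rose clearly and genes that did not pass. Of 11 probe sets, 6 passed as higher with each construct (54.5%). That stood beside 11.8% of all tested with M33-MEIS1, 13.8% with MEIS1-deltaHD and 13.1% with MEIS1-WT. Stip1, or Hop, hands clients from Hsp70 to Hsp90. It read 752, 823 and 694 with M33-MEIS1, 769, 789 and 798 with MEIS1-deltaHD and 800.0, 849.7 and 826 with MEIS1-WT, against 414, 396 and 448 with MIY. No construct array overlapped the control arrays. The difference was 0.82 with M33-MEIS1 (adjusted p = 2.94e-08), 0.88 with MEIS1-deltaHD (adjusted p = 7.25e-09) and 0.95 with MEIS1-WT (adjusted p = 1.74e-09). Ahsa1 encodes Aha1, the activator of the Hsp90 ATPase, and read 1361, 1312 and 1353 with M33-MEIS1, 1484, 1494 and 1411 with MEIS1-deltaHD and 1308, 1372 and 1320.0 with MEIS1-WT, against 789, 666 and 781 with MIY on 1424147_at. It differed by 0.84 with M33-MEIS1 (adjusted p = 8.99e-09), 0.96 with MEIS1-deltaHD (adjusted p = 7.05e-10) and 0.83 with MEIS1-WT (adjusted p = 6.2e-09). Fkbp4 encodes FKBP52, an immunophilin of steroid receptor complexes, and read 1070.4, 1114 and 1189.6 with M33-MEIS1, 1232, 1257 and 1055 with MEIS1-deltaHD and 1037, 1085 and 1106 with MEIS1-WT, against 598, 631 and 520.5 with MIY on 1416362_a_at. Differences were 0.93 with M33-MEIS1 (adjusted p = 1.29e-08), 1.00 with MEIS1-deltaHD (adjusted p = 2.97e-09) and 0.87 with MEIS1-WT (adjusted p = 2.3e-08). All of these had no overlap between constructs and control.

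Cdc37, which loads protein kinases onto Hsp90, rose on both probe sets, and the bright 1416819_at differed by 0.38 with M33-MEIS1, 0.40 with MEIS1-deltaHD and 0.40 with MEIS1-WT. Fkbp5, or FKBP51, a glucocorticoid-induced immunophilin that competes with FKBP52, read 448, 512 and 435 with M33-MEIS1, 525, 507 and 465 with MEIS1-deltaHD and 496, 459.9 and 497 with MEIS1-WT, against 391, 487 and 447 with MIY. The groups overlapped, and it did not pass (0.074 with M33-MEIS1 (adjusted p = 0.591), 0.17 with MEIS1-deltaHD (adjusted p = 0.144) and 0.13 with MEIS1-WT (adjusted p = 0.294)). Chordc1, or Morgana, an Hsp90 partner and heat shock target, read 1199, 1085 and 1178 with M33-MEIS1, 1138, 1232 and 1141 with MEIS1-deltaHD and 1051, 1255 and 1165 with MEIS1-WT, against 1190.2, 1139 and 1125 with MIY. All 4 groups overlapped, with 95% intervals of the difference of -0.16 to 0.16, -0.14 to 0.18 and -0.15 to 0.16 for the 3 constructs. Both genes passed as higher after median scaling, Fkbp5 by 0.42, 0.66 and 0.49 and Chordc1 by 0.36, 0.52 and 0.37. A dim Fkbp4 probe set, 1459808_at, at 1.15, 3.66 and 3.07 with MEIS1-WT and 21.7, 24.6 and 12.7 with MIY, passed as lower there (-0.92, adjusted p = 0.00573), against the direction of the bright ones.

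In mitochondria, under the authors' scaling, the lid of the chaperonin rose with every construct while the mitochondrial Hsp70 Hspa9 fell. Hspd1, the chamber subunit Hsp60, read 3905, 3875 and 4263 with M33-MEIS1, 3647, 3820.2 and 3778 with MEIS1-deltaHD and 3923, 3926 and 4125 with MEIS1-WT, against 3384, 3381 and 3290.5 with MIY. Every construct array exceeded every control array, though by little. It differed by 0.26 with M33-MEIS1 (adjusted p = 0.00422), 0.16 with MEIS1-deltaHD (adjusted p = 0.0608) and 0.25 with MEIS1-WT (adjusted p = 0.00463), so MEIS1-deltaHD did not pass. Hspd1 did pass as higher with MEIS1-deltaHD after quantile normalization (0.19, adjusted p = 0.00451) and median scaling (0.67, adjusted p = 1.78e-06). Hspd1 also passed there when M33-MEIS1 replicate 3 was left out (0.16, adjusted p = 0.0401). Its lid Hspe1, or Hsp10, read 2729.8, 2358 and 2467 with M33-MEIS1, 2398, 2663 and 2434 with MEIS1-deltaHD and 2754, 2888 and 2672 with MEIS1-WT, against 2096, 2099 and 2009 with MIY on 1450668_s_at. It passed with every construct (0.28 with M33-MEIS1 (adjusted p = 0.00477), 0.27 with MEIS1-deltaHD (adjusted p = 0.00504) and 0.42 with MEIS1-WT (adjusted p = 7.38e-05)). The second Hspe1 probe set, 1422579_at, read 1052, 813 and 662 with M33-MEIS1, 992, 843 and 788 with MEIS1-deltaHD and 788, 720.4 and 840.4 with MEIS1-WT, against 556, 615 and 616 with MIY and differed by 0.47 with M33-MEIS1, 0.54 with MEIS1-deltaHD and 0.38 with MEIS1-WT, all past the test. Trap1, the mitochondrial Hsp90, read 955, 822 and 879 with M33-MEIS1, 992, 1005 and 887 with MEIS1-deltaHD and 862, 884 and 898 with MEIS1-WT, against 616, 611 and 719 with MIY on 1416170_at, with no overlap. It differed by 0.44 with M33-MEIS1 (adjusted p = 0.000247), 0.56 with MEIS1-deltaHD (adjusted p = 1.08e-05) and 0.44 with MEIS1-WT (adjusted p = 0.000217), and its other probe set did not pass. The plot of mitochondrial signals sets these beside Hspa9.

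**Figure D3:**
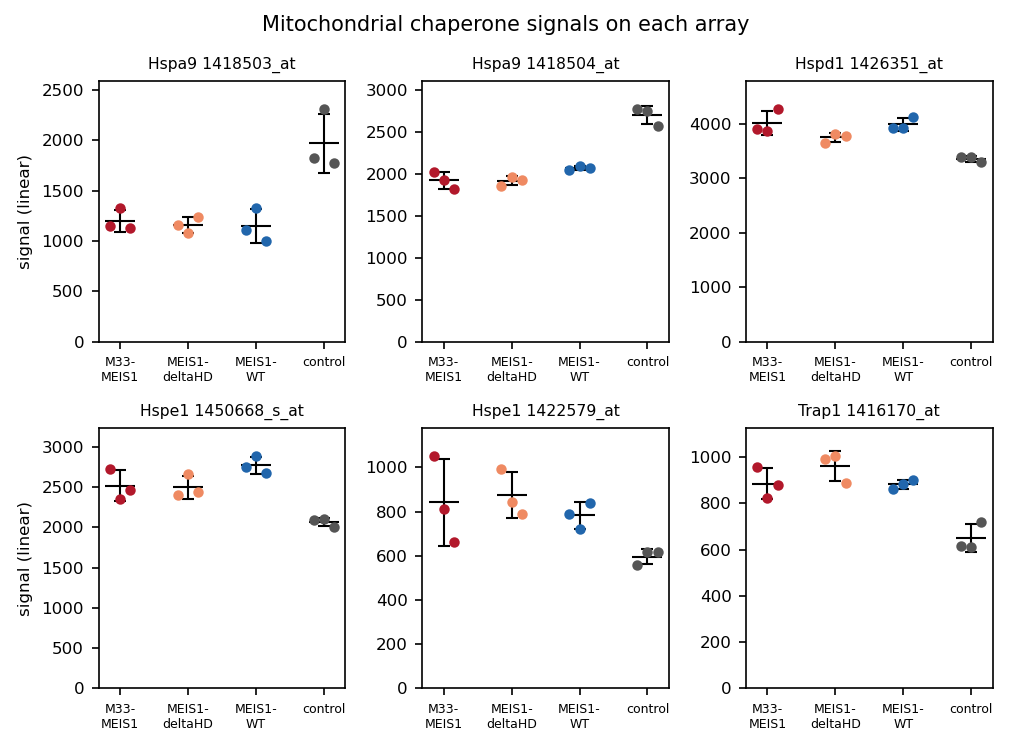
Array signal (y axis, linear scale from 0) of 6 probe sets of mitochondrial chaperones, with 1 point per array and a bar at the mean ± SD of 3 arrays for each group. Under the authors' scaling both Hspa9 probe sets lie lower in the constructs than in MIY, and Hspd1, Hspe1 and Trap1 lie higher.

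Subunits of the cytosolic chaperonin TRiC did not move as 1 block. Of 21 probe sets, 7 passed as higher and 2 as lower with M33-MEIS1, 8 and 4 with MEIS1-deltaHD, and 7 with MEIS1-WT as higher. As higher, 33.3%, 38.1% and 33.3% of the TRiC probe sets passed, beside 11.8%, 13.8% and 13.1% of all tested. As lower, 9.52%, 19% and 0% passed, beside 17.1%, 20.8% and 17.8% of all tested, so lower calls were not in excess. Cct3, Cct5, Cct7 and Cct8 held all of the higher ones but 1, a Cct4 probe set. Cct3 read 2508, 2432 and 2534 with M33-MEIS1, 2343, 2649 and 2486 with MEIS1-deltaHD and 2540.3, 2609.8 and 2199.7 with MEIS1-WT, against 1456, 1765 and 1522 with MIY on 1459987_s_at. It rose without overlap, by 0.66 with M33-MEIS1 (adjusted p = 1.52e-06), 0.65 with MEIS1-deltaHD (adjusted p = 1.09e-06) and 0.63 with MEIS1-WT (adjusted p = 1.98e-06). Of its 6 probe sets tested, 3 passed as higher with each construct, and 1416024_x_at, of like signal, overlapped in all groups and did not pass (0.0034 with M33-MEIS1, 0.077 with MEIS1-deltaHD and 0.066 with MEIS1-WT). Cct7 read higher on both probe sets, with 1415816_at at 0.44 with M33-MEIS1, 0.46 with MEIS1-deltaHD and 0.47 with MEIS1-WT, and Cct8 differed by 0.35 with M33-MEIS1, 0.34 with MEIS1-deltaHD and 0.42 with MEIS1-WT and Cct5 by 0.22 with M33-MEIS1, 0.22 with MEIS1-deltaHD and 0.28 with MEIS1-WT, all past the test. Tcp1, the subunit that gives the complex its name, read 3760.2, 3622 and 3995 with M33-MEIS1, 3604, 3729 and 3680.4 with MEIS1-deltaHD and 3679, 3782 and 3765 with MEIS1-WT, against 3532, 3397 and 3409.8 with MIY. Its construct arrays lay above MIY without overlap, yet it did not pass (0.14 with M33-MEIS1 (adjusted p = 0.12), 0.091 with MEIS1-deltaHD (adjusted p = 0.293) and 0.12 with MEIS1-WT (adjusted p = 0.177)). Quantile normalization brought M33-MEIS1 and MEIS1-WT past the test (0.14 each, adjusted p = 0.0372 and 0.0341), and median scaling all 3 constructs (0.50, 0.60 and 0.49).

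Cct4 and Cct2 did not share that rise under the authors' scaling. Cct4 read 2884, 2693 and 2589.5 with M33-MEIS1, 2576, 2894 and 2743 with MEIS1-deltaHD and 3121, 3037 and 2947 with MEIS1-WT, against 3432, 3312 and 2919.6 with MIY on 1433447_x_at. It passed as lower with M33-MEIS1 (-0.24, adjusted p = 0.0176) and MEIS1-deltaHD (-0.23, adjusted p = 0.0182), not with MEIS1-WT (-0.083, adjusted p = 0.443). The call with M33-MEIS1 was lost without control replicate 1, control replicate 2 or M33-MEIS1 replicate 3 (-0.19, -0.22 and -0.20, adjusted p = 0.099, 0.0529 and 0.0625). Only 1 of 7 Cct4 probe sets, the dim 1430034_at, passed as higher, with MEIS1-deltaHD (0.37, adjusted p = 0.048). Cct4 1415867_at passed as lower with MEIS1-deltaHD (-0.20, adjusted p = 0.0309) and 1438560_x_at with M33-MEIS1 (-0.23, adjusted p = 0.0256). Of the 3 Cct2 probe sets, 1433534_a_at passed as lower with MEIS1-deltaHD (-0.29, adjusted p = 0.0159) and the brighter pair did not pass. Median scaling turned each of these lower calls positive, to 0.12 with M33-MEIS1 and 0.27 with MEIS1-deltaHD for 1433447_x_at, 0.30 for 1415867_at, 0.12 for 1438560_x_at and 0.22 for 1433534_a_at. A dim Cct3 probe set, 1426067_x_at, read 83.3, 60.4 and 94.0 with M33-MEIS1, 62.5, 103 and 51.3 with MEIS1-deltaHD and 108, 85.6 and 129 with MEIS1-WT, against 119, 99.5 and 97.0 with MIY. It passed as lower with MEIS1-deltaHD (-0.50, adjusted p = 0.0342), although its arrays overlapped MIY. Removal of control replicate 1, or of replicate 1 or 3 of MEIS1-deltaHD, ended that call (-0.42, -0.43 and -0.32, adjusted p = 0.127, 0.119 and 0.206).

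The small heat shock protein and the transcription factor measured here were near the bottom of the scale. Hspb1, or Hsp25, which holds unfolded proteins in solution, read 10.3, 20.2 and 16.5 with M33-MEIS1, 23.2, 17.8 and 20.5 with MEIS1-deltaHD and 15.7, 25.0 and 11.4 with MEIS1-WT, against 15.8, 20.6 and 28.7 with MIY. The groups overlapped and it did not pass (-0.25 with M33-MEIS1, -0.036 with MEIS1-deltaHD and -0.18 with MEIS1-WT, adjusted p = 0.39, 0.912 and 0.544). Hsf2, a heat shock factor active in development, read 15.4, 6.13 and 25.9 with M33-MEIS1, 5.25, 12.2 and 6.90 with MEIS1-deltaHD and 8.88, 7.61 and 11.6 with MEIS1-WT, against 11.4, 21.3 and 14.2 with MIY. It overlapped between groups and did not pass either, at -0.027 with M33-MEIS1, -0.39 with MEIS1-deltaHD and -0.31 with MEIS1-WT (adjusted p = 0.946, 0.199 and 0.34). Signals this low leave wide intervals, for Hsf2 -0.50 to 0.45, -0.86 to 0.085 and -0.78 to 0.17 on the log2 scale.

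Few chaperone differences between the constructs themselves passed. Between M33-MEIS1 and MEIS1-deltaHD, 1 of the 91 probe sets passed as lower in limma, where 0.492% of all probe sets tested passed (0.438% as higher and 0.0536% as lower). Between M33-MEIS1 and MEIS1-WT, 1 passed as lower (5.54% of all, 3.36% as higher and 2.19% as lower), and between MEIS1-deltaHD and MEIS1-WT 2 passed as lower (4.53% of all, 2.42% as higher and 2.11% as lower). The count that passed as higher was 0 in each. At an unadjusted p below 0.05 in limma, 3, 2 and 3 probe sets were higher and 5, 11 and 8 lower in the same order. The share of all probe sets below that unadjusted threshold was not counted, so no lean of the chaperones is read from these numbers. Groups did not overlap for 2 higher and 14 lower probe sets between M33-MEIS1 and MEIS1-deltaHD (8.92% and 7.1% of all), 0 and 11 between M33-MEIS1 and MEIS1-WT (10.2% and 10.5%), and 7 and 18 between MEIS1-deltaHD and MEIS1-WT (10.4% and 12%). The median 95% interval reached 0.192 to either side on the log2 scale. These intervals are not adjusted for the number of tests, and a call at the adjusted threshold needed a larger difference. Differences above 0.192 could thus also be missed, and the few calls do not show that the constructs were alike.

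The calls between M33-MEIS1 and the other constructs were both on Hsph1. On 1423566_a_at, whose values stand above, M33-MEIS1 averaged 349 ± 18.7 against 479 ± 23.6 with MEIS1-deltaHD and 435 ± 26.6 with MEIS1-WT (SD, n = 3 each). Its log2 difference from MEIS1-deltaHD was -0.44 (-0.62 to -0.26, adjusted p = 0.0144) and from MEIS1-WT -0.30 (-0.48 to -0.13, adjusted p = 0.0365). The other Hsph1 probe set pointed the same way without overlap but did not pass (-0.20, adjusted p = 0.349, and -0.19, adjusted p = 0.203). Leaving out either M33-MEIS1 replicate 1 or 3 ended both calls (-0.42 and -0.41 against MEIS1-deltaHD, adjusted p = 0.0767 and 0.0845, and -0.29 and -0.28 against MEIS1-WT, adjusted p = 0.111 and 0.119). The call against MEIS1-deltaHD also ended without its replicate 2 or 3 (adjusted p = 0.127 and 0.0568), and that against MEIS1-WT without its replicate 1 or 2 (adjusted p = 0.0919 and 0.183). Against MEIS1-WT the call was also lost after quantile normalization (-0.29, adjusted p = 0.0514) and median scaling (-0.31, adjusted p = 0.188).

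MEIS1-deltaHD differed from MEIS1-WT on the dim Hspa4 probe set 1435194_at (-0.47, adjusted p = 0.0215) and on the dim Cct4 probe set 1456082_x_at (-0.53, adjusted p = 0.033). The Cct4 probe set read 189, 157 and 217 with M33-MEIS1, 127, 179.6 and 132 with MEIS1-deltaHD, 271, 178 and 206 with MEIS1-WT and 174, 214 and 177 with MIY, and the groups overlapped. Brighter probe sets of these genes did not pass here, with Hspa4 1416146_at at 0.13 (adjusted p = 0.537) and Cct4 1433447_x_at at -0.15 (adjusted p = 0.347). The Hspa4 call was lost without MEIS1-WT replicate 1 or 2 or MEIS1-deltaHD replicate 1 or 2 (-0.41, -0.47, -0.45 and -0.44, adjusted p = 0.122, 0.067, 0.0924 and 0.0986). The Cct4 call was lost without MEIS1-WT replicate 1 or 3 or MEIS1-deltaHD replicate 1 or 3 (-0.37, -0.56, -0.44 and -0.47, adjusted p = 0.244, 0.0647, 0.194 and 0.136).

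For Stip1 and Hsp90aa1, which rose with every construct, the intervals between constructs bound the difference. Hsph1, which rose most, did pass between constructs on 1423566_a_at, as given above. For Stip1 the interval was -0.22 to 0.11 for M33-MEIS1 minus MEIS1-deltaHD, -0.29 to 0.036 for M33-MEIS1 minus MEIS1-WT and -0.23 to 0.093 for MEIS1-deltaHD minus MEIS1-WT. For Hsp90aa1 1437497_a_at it was -0.24 to 0.060, -0.20 to 0.11 and -0.11 to 0.20 in that order. Their distance from MIY was larger than any value in these intervals.

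**Figure D4:**
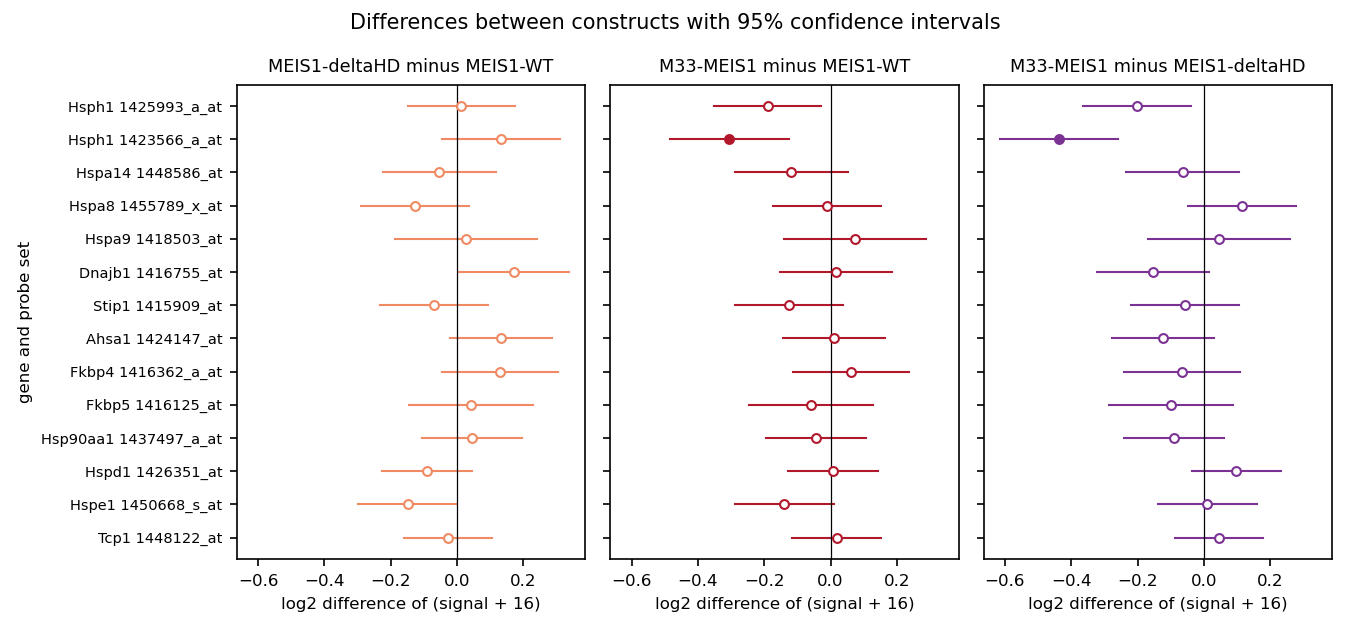
Log2 difference between constructs (x axis, log2 of signal + 16) with its 95% confidence interval, for 14 chaperone probe sets and 3 comparisons of constructs. Filled points passed at an adjusted p below 0.05, which held for Hsph1 1423566_a_at in both comparisons of M33-MEIS1, and most other intervals include 0.

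The split between higher and lower depended on how the arrays were scaled. Of all calls against MIY, 40.8% were higher with M33-MEIS1, 39.8% with MEIS1-deltaHD and 42.4% with MEIS1-WT under the authors' scaling. After quantile normalization these shares were 53.6%, 54.6% and 55%, and after scaling to a common median 81.9%, 84.3% and 79.1%. Median scaling shifted the median of all probe sets by 0.225, 0.311 and 0.228 on the log2 scale, and quantile normalization by 0.127, 0.162 and 0.131. Among the chaperones, 43, 48 and 48 probe sets passed as higher and 7, 8 and 3 as lower after quantile normalization. After median scaling 59, 71 and 62 passed as higher and 1, 0 and 2 as lower. Under each scaling the share of chaperone probe sets that passed as higher exceeded that of all probe sets, as the plot of shares by scaling shows. Of the 45, 50 and 47 calls against MIY, 33, 33 and 37 held in every alternative run in which their probe set was tested. Runs with 1 probe set per gene or without _x_at, _s_at and _a_at probe sets tested only part of them.

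**Figure D5:**
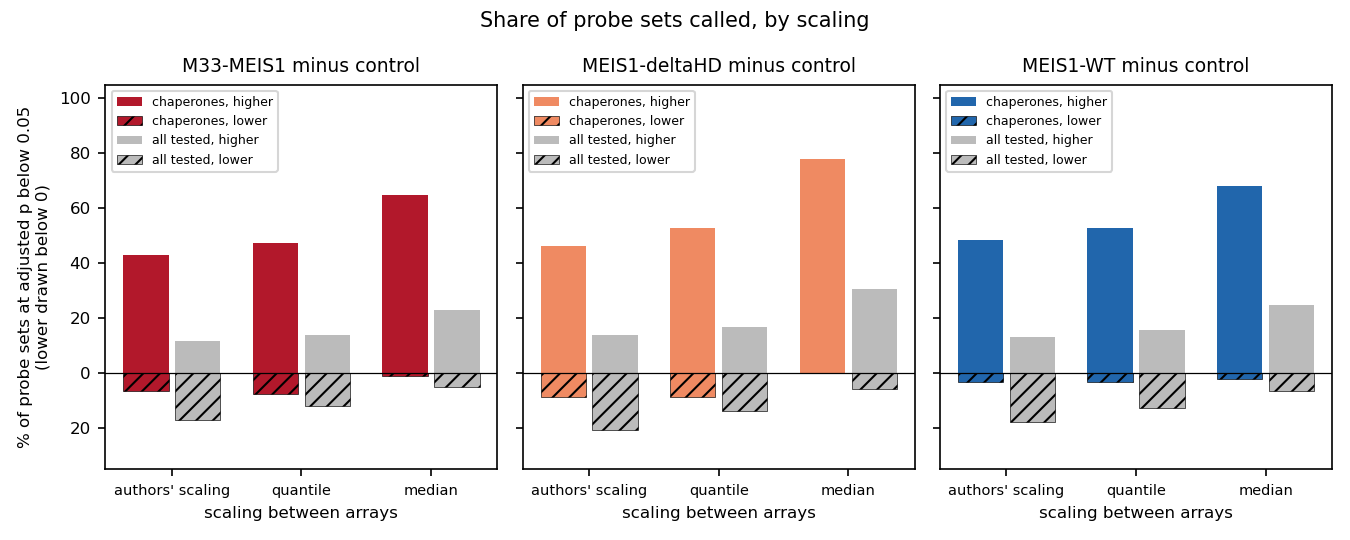
Share of probe sets (y axis, percent) that passed against MIY as higher (above 0) and as lower (hatched, drawn below 0), for the chaperones in colour and for all probe sets tested in grey, under 3 scalings of the arrays. For MEIS1-WT the chaperone share that passed as higher was 48.4% under the authors' scaling, 52.7% after quantile normalization and 68.1% after median scaling.

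Other chaperones of the same compartments, from a list of 60 symbols that leaves out the members, also passed as higher more often than as lower. Of 97 probe sets that passed the filter, 33 passed as higher and 5 as lower with M33-MEIS1, 37 and 7 with MEIS1-deltaHD, and 40 and 7 with MEIS1-WT, with medians of 0.15, 0.17 and 0.24. The higher shares were 34%, 38.1% and 41.2%, beside 11.8%, 13.8% and 13.1% of all tested. The lower shares were 5.15%, 7.22% and 7.22%, beside 17.1%, 20.8% and 17.8% of all tested. Prefoldin subunits, which pass nascent actin and tubulin to TRiC, were among those that rose most. Pfdn4 averaged 652 with M33-MEIS1, 715 with MEIS1-deltaHD and 648 with MEIS1-WT, against 366 with MIY (0.80, 0.94 and 0.80). Pfdn2 rose by 0.77 with M33-MEIS1 and 0.80 with MEIS1-WT. Stub1, the ubiquitin ligase CHIP that marks Hsp70 clients for degradation, averaged 711 with MEIS1-deltaHD against 364 with MIY (0.95, adjusted p = 6.41e-08). Aarsd1 rose by 0.85, 0.91 and 0.86. Under the authors' scaling, Grpel2, an exchange factor of mitochondrial Hsp70, fell with all 3 constructs (-0.85, -0.84 and -0.72), as did Hspa9, which it serves. Hspb11 fell with M33-MEIS1 (-0.89) and MEIS1-deltaHD (-0.64) under the same scaling, and the other scalings were not run gene by gene for this list.

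Chaperones of the endoplasmic reticulum, which answer mainly to the unfolded protein response, mostly passed as higher. Of 42 probe sets of 20 genes, 31 passed as higher and 2 as lower with M33-MEIS1, 32 and 2 with MEIS1-deltaHD, and 23 with MEIS1-WT as higher, with medians of 0.51, 0.51 and 0.39. The higher shares were 73.8%, 76.2% and 54.8%, beside 11.8%, 13.8% and 13.1% of all tested. Sdf2l1, part of a large chaperone complex there, averaged 497 with M33-MEIS1, 618 with MEIS1-deltaHD and 400 with MEIS1-WT, against 151 with MIY (1.64, 1.94 and 1.34). Dnajb9, a target of that response, passed as lower under the authors' scaling with M33-MEIS1 (-0.39, adjusted p = 0.0249) and MEIS1-deltaHD (-0.41, adjusted p = 0.0142). The other scalings were not run gene by gene for this list either, so no direction is given for Dnajb9. Hsp90b1, the Hsp90 of that compartment, rose by 1.14 with M33-MEIS1 and 1.22 with MEIS1-deltaHD. Between MEIS1-deltaHD and MEIS1-WT, 7 of these 42 probe sets passed as higher, led by Sdf2l1 (0.60, adjusted p = 0.00478) and Dnajc3 (0.55, adjusted p = 0.00483), where 2.42% of all probe sets did. Calr passed as higher with M33-MEIS1 than with MEIS1-WT on 3 probe sets (0.34 to 0.42). None of the cytosolic and mitochondrial members passed as higher in these comparisons of constructs, and the difference between the sets was not tested.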

How the data were processed

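Total RNA of 12 sorted cell samples, 3 for each of 4 second viruses, was hybridised to Affymetrix mouse 430 2.0 arrays. The deposited values are probe set signal intensities on a linear scale, made by the authors with GCOS 1.2 per the submitters' processing notes, and the values show that each array was scaled to a mean of 100 without the lowest and highest 2% of probe sets. How GCOS corrected background or combined probes is not given in the sources used, and the number of arrays limits the precision.

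Groups came from the sample labels. Of 45101 probe sets, 64 array controls were left out. GEO's platform annotation gave 1 symbol to 34945, several to 932 and none to 9160 of the rest, and symbols were checked through Entrez IDs for 34741, with 0 changed. Suffixes mark probes shared by transcripts of a gene (_a_at), between genes (_s_at) or partly similar to other sequences (_x_at). Probe sets above the 40th percentile of an array on at least 3 of 12 arrays (31726) were tested as log2(signal + 16) with limma 3.58.1 in R 4.3.3 (lmFit, eBayes with an intensity trend, 4 groups in 1 model, 8 residual degrees of freedom, two-sided), with Benjamini-Hochberg adjustment over all of them. The code was tested on simulated data. Alternatives were a pseudocount of 1 or 64, no filter, quantile or median scaling, 1 probe set per gene, no suffixed probe sets, only the groups compared, no trend, a replicate block, and each array left out.

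The members and the gene lists were chosen with earlier results of these data known. Values on every array are given for the 5 higher and the 5 lower probe sets of largest difference among those called in each comparison and for 1 probe set of each role.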

Additional observations from a re-analysis of the deposited data

How the results depend on the processing

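Against MIY the number of chaperone probe sets past the test was 45 with M33-MEIS1, 50 with MEIS1-deltaHD and 47 with MEIS1-WT, and leaving out 1 array at a time gave 41 to 45, 40 to 53 and 40 to 47. With 1 probe set per gene (36 tested) the numbers were 26, 25 and 25, and without _x_at, _s_at and _a_at probe sets (56 tested) 30, 33 and 30, where fewer probe sets were tested. The few calls between constructs were the least stable. For MEIS1-deltaHD minus MEIS1-WT the 2 calls became 0 without the filter, 0 with 1 probe set per gene, 0 without the intensity trend, 1 after quantile normalization, 1 after median scaling (higher), 1 without suffixed probe sets, and 0 to 3 as arrays were left out. For M33-MEIS1 minus MEIS1-WT the single call became 0 after median scaling, 0 with 1 probe set per gene, 0 without suffixed probe sets, 2 with the replicate block, and 0 to 2 as arrays were left out. After quantile normalization the count stayed at 1, but Cct3 1448178_a_at (-0.20, adjusted p = 0.0484) passed in place of Hsph1 1423566_a_at (adjusted p = 0.0514). For M33-MEIS1 minus MEIS1-deltaHD it became 0 with 1 probe set per gene, 0 without suffixed probe sets, 0 without the trend, and 0 to 1 as arrays were left out. The cause of these changes in the counts was not tested.

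Of the lower calls against MIY, median scaling turned 3 positive with M33-MEIS1 and 6 with MEIS1-deltaHD. Hspa8 1455789_x_at, which passed with no construct, read 0.16 with M33-MEIS1, 0.17 with MEIS1-deltaHD and 0.24 with MEIS1-WT after quantile normalization, and 0.33, 0.36 and 0.35 after median scaling. Median scaling also gave 0.025 (M33-MEIS1) and 0.065 (MEIS1-deltaHD) for Hspa4 1435194_at, 0.12 (M33-MEIS1) and 0.27 (MEIS1-deltaHD) for Cct4 1433447_x_at, 0.30 (MEIS1-deltaHD) for Cct4 1415867_at, 0.12 (M33-MEIS1) for Cct4 1438560_x_at, 0.22 (MEIS1-deltaHD) for Cct2 1433534_a_at, and 0.017 and 0.096 (MEIS1-deltaHD) for Hspa9 1418504_at and Dnajb4 1451177_at. Median scaling multiplies all signals of an array by 1 factor.

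Groups share replicate numbers, but deviations of arrays with the same number correlated at -0.0471 to 0.0282 over 18 pairs. No shared effect of the number was thus visible, which does not show that the samples were unpaired. With the replicate block 46, 49 and 46 probe sets passed against MIY with M33-MEIS1, MEIS1-deltaHD and MEIS1-WT. Dim probe sets carry the widest errors, and 5 of 96 were not tested.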
